A study of Mus musculus with 11 samples.

Results

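The genes described here encode the subunits of the mouse proteasome. They were taken by symbol, as every gene whose single symbol in the platform annotation starts with Psma, Psmb, Psmc, Psmd or Psme followed by a digit, and the brightest row was kept where a gene had several. The rule gave 45 genes of 19937 measured by name. They comprised 8 alpha and 7 constitutive beta genes of the 20S core, the thymus beta gene Psmb11, 5 immunoproteasome genes, 6 ATPases and 11 non-ATPases of the 19S regulatory particle, 3 chaperones of 19S assembly and the activators Psme3 and Psme4. The symbol rule also took in Psmc3ip and Psme3ip1, which encode interacting proteins and not subunits, so that 43 of the 45 are proteasome genes in the strict sense.

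The study compared T-cell leukemias of mice that carry human TCL1A under the proximal Lck promoter with T-cells of normal mice. Expression was measured on 11 whole-transcript arrays. There were 3 arrays of the chronic phase (30 to 70% tumor cells in blood and spleen, average age 12 months) and 5 arrays of the exponential phase (over 80% tumor cells in blood and over 90% in spleen, average age 15 months, blood lymphocytes doubling in 12 days on average, SEM 0.8). All leukemia arrays were Lckpr-TCL1A+/- and held splenic T-cells enriched for CD8+, whereas the 3 wild-type arrays held purified CD3+ pan-T-cells of age-matched C57BL/6 mice, each a pool from 3 mice. The cell selection therefore ran with the genotype, and the effects of both cannot be told apart in any comparison with wild type. Between the leukemias, phase ran with the share of tumor cells and the average age, whose effects cannot be told apart either. The proximal Lck promoter drives expression in T-lineage cells. Fewer cells of a type and less RNA per cell cannot be told apart in these bulk samples.

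The proteasome degrades proteins tagged with ubiquitin. Its barrel-shaped 20S core is built of alpha rings, which gate the entrance, and beta rings, of which Psmb5, Psmb6 and Psmb7 carry the proteolytic sites, and it is capped by the 19S particle, whose lid and base bind, deubiquitinate and unfold the substrate. Lymphocytes also make the immunoproteasome, in which the interferon-inducible Psmb8, Psmb9 and Psmb10 replace Psmb5, Psmb6 and Psmb7, and the activator Psme1/Psme2, which together favor peptides for MHC class I.

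Promoter stretches are shown for 4 members on which the results below turn. They are the bases just before the gene start in the RefSeq annotation of GRCm38.p6, written 5′ to 3′ on the strand of the gene. Psmd6 had the largest difference of all members. Psmb5 and Psmb6 are constitutive catalytic genes with a match to the antioxidant response element core, shown in capitals, a motif bound by the Nfe2l1 and Nfe2l2 factors that drive proteasome genes. Psmb9 had the lowest difference of all members in chronic leukemias, where 9 of 45 lay below 0, and its stretch is the whole interval of 225 bases between its own start and that of Tap1, the peptide transporter gene read from the opposite strand. The positions are chr14:14120946-14121045 (minus strand) for Psmd6, chr14:54617996-54618095 (minus) for Psmb5, chr11:70525257-70525356 (plus) for Psmb6 and chr17:34187331-34187555 (minus) for Psmb9.
Psmd6: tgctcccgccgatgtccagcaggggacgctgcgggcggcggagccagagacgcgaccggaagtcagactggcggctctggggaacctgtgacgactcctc
Psmb5: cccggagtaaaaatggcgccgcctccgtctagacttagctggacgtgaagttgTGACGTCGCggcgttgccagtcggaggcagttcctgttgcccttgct
Psmb6: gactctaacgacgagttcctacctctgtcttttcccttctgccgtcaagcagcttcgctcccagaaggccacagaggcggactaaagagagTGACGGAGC
Psmb9: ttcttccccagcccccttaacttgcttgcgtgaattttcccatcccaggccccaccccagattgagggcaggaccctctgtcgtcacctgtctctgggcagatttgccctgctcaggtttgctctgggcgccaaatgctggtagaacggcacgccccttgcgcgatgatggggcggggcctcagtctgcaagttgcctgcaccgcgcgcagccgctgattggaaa

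Promoter windows of 250 bases before to 50 bases after the start were found for 38 of the 45 members. The antioxidant core, searched as TGACNNNGC on both strands, lay in the windows of 6 members, which were Psmb5, Psmb6, Psmc6, Psmd9, Psmd12 and Psme4. That is 15.8% of the members with a window, beside 14.0% of all 27025 genes with one. In Psmb5 the match spanned -47 to -39 from the start and in Psmb6 -9 to -1. A core of the interferon-stimulated response element, GAAANNGAAA on both strands, lay in 4 members (Psmb3, Psmd4, Psmd9 and Psme1), 10.5% beside 3.99% of all genes, and had no match in the windows of Psmb8, Psmb9 and Psmb10. The matches are descriptions of letters in these windows.

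All values are log2 intensities after the robust multi-array average (RMA), so that a difference of 1 is a 2-fold change, and a level depends on the probes of its gene. Means of the members over all arrays ran from 1.89 to 9.09. In 43 of 45 the mean lay above the median gene of the table (2.32), which places the members on the scale of the array and does not show how well each was measured. Below it were Psma8, a testis-enriched alpha gene (1.89), and Psmb11, the thymic beta gene (2.18). The libraries differed in more than the proteasome. Of 7 genes that mark CD4+ and regulatory T-cells, all were lower in chronic and in exponential leukemias than in wild type, at unadjusted p under 0.05. Of 12 myeloid and dendritic cell markers, 10 were higher and 2 lower in exponential leukemias than in wild type (median difference 0.25). At an unadjusted p under 0.05, 4 of them were higher and 1 was lower. The largest difference was that of S100a9, a neutrophil and monocyte gene. It was at 4.97 to 8.83 in exponential leukemias and at 2.57 to 3.46 in the other arrays. Of 7 B-cell markers, 6 were higher in exponential leukemias, 0 of them at that p. All 6 erythroid markers were lower in exponential leukemias than in wild type, with 1 called (Car1, difference -6.11, adjusted p = 0.0114 with limma), as were all 6 plasma cell markers, 4 of them at an unadjusted p under 0.05. All 6 CD8 markers were higher in chronic leukemias, 4 at that p and 1 called (Gzmb, difference 2.21, adjusted p = 0.00801 with limma). The part of these cell types in the proteasome values was not tested. The RNA of exponential replicate 4 did not look like that of CD8+-enriched T-cells, the selection described for the leukemia arrays. Cd8a stood at 2.96 there (6.16 to 8.31 in all other arrays) and Cd4 at 5.18, so that the counts of members are also given without this array. No source used here says whether a leukemia array was 1 mouse, and p-values measure only the spread from array to array.

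**Figure D1:**
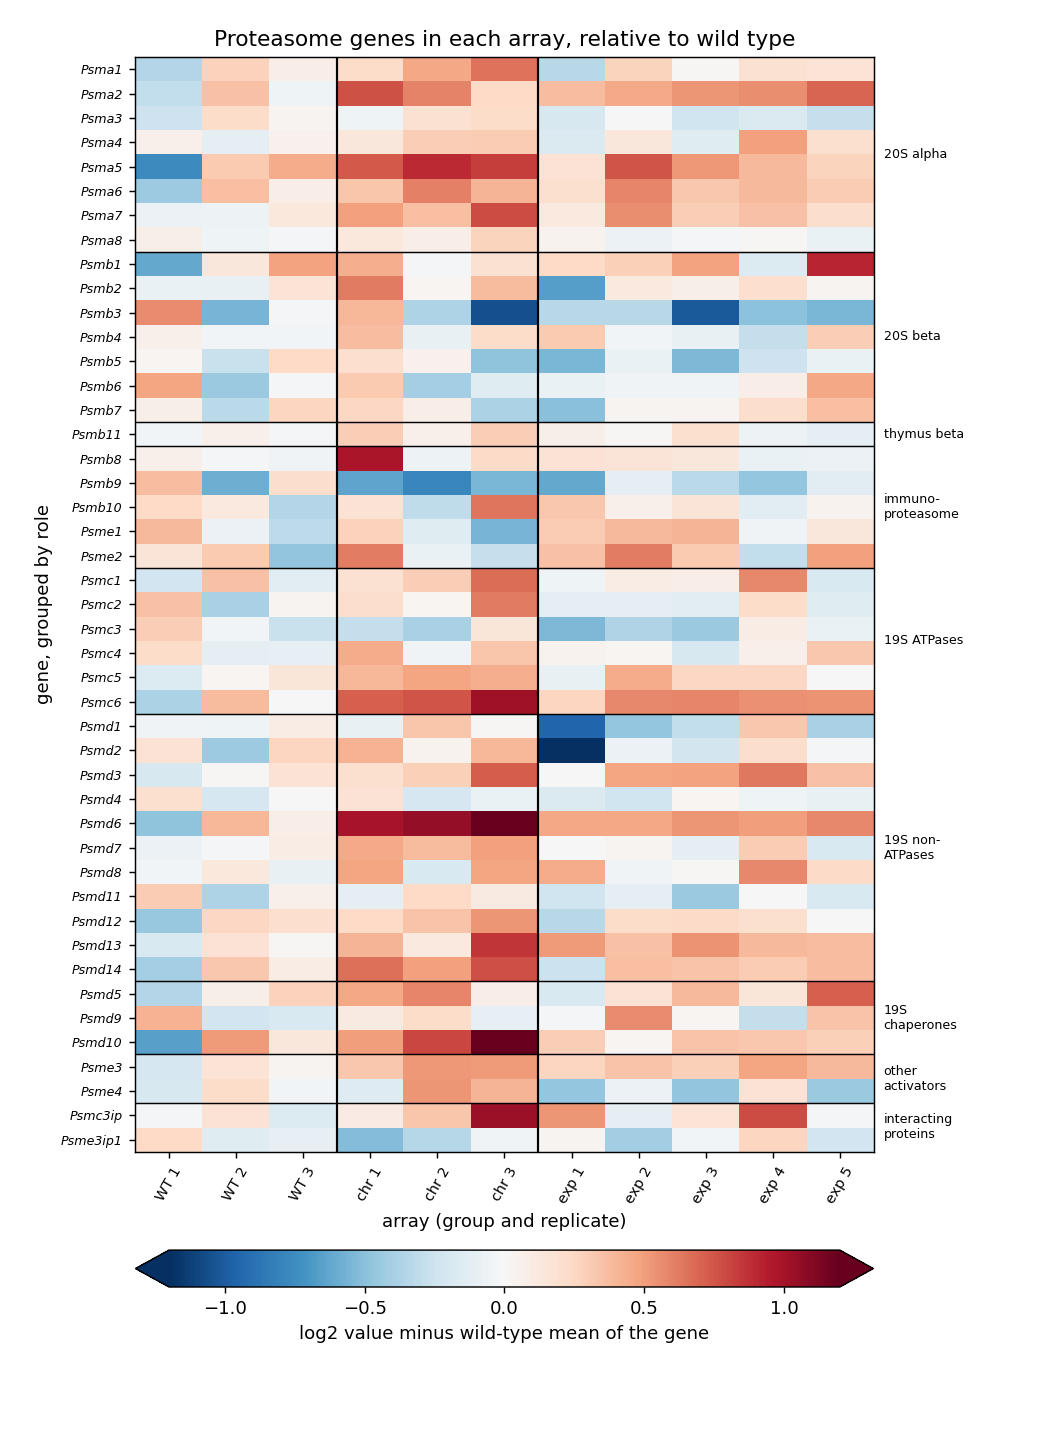
Each row is 1 of the 45 genes, grouped by role, and each column 1 array. Color is the log2 value minus the mean of the 3 wild-type (WT) arrays, for wild type, chronic (chr) and exponential (exp) arrays. Most alpha, ATPase and non-ATPase genes are red in the 3 chronic arrays, whereas Psmb9 is blue there.

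In chronic leukemias, most proteasome genes were measured at a higher level than in wild type, but no member passed the test. Of the 45 members, 36 lay above 0 in the difference (80.0%, beside 49.7% of all genes), and the median difference was 0.26, beside -0.0017 for all genes. With limma, fitted over all genes and adjusted by Benjamini-Hochberg, 0 members reached an adjusted p under 0.05 with a fold change (fc) of at least 1.5, beside 0.456% of all genes. At an unadjusted p under 0.05, 11 members were higher (24.4%, beside 6.36% of all genes) and 1 was lower (2.22%, beside 4.80%). In 12 members (26.7%, beside 8.28%), all 3 chronic arrays lay above all 3 wild-type arrays, and in 0 all lay below (beside 7.52%). Among the 12 were the dim genes Psma8 and Psmb11, whose means lay below the median gene of the table. Without wild-type replicate 1, all chronic arrays lay above wild type in 14 of 45 members, beside 13.3% of all genes. At the same unadjusted p, 8 of 45 were then higher, beside 4.51%. The members were read from the same arrays and are not independent of each other.

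In exponential leukemias, the difference from wild type was smaller over the same genes. The median over the members was 0.08, beside 0.0067 for all genes, and 31 of 45 lay above 0 (68.9%, beside 51.7%). Here, too, 0 members were called (beside 0.416% of all genes). At an unadjusted p under 0.05, 7 were higher (15.6%, beside 4.79%) and 0 were lower (beside 4.99%). All arrays lay above wild type in 4 members (8.89%, beside 3.28%) and below it in 0 (beside 3.50%). Without exponential replicate 4, 28 of 45 members lay above 0 (beside 50.6% of all genes). At the same unadjusted p, 7 of 45 were then higher (15.6%, beside 5.89%) and 2 of 45 lower (beside 5.40%). In that fit, 0 members were called, beside 221 of all genes (1.108%). All remaining arrays then lay above wild type in 4 of 45 members (8.89%, beside 5.23%) and below it in 1 of 45 (beside 5.31%). Without wild-type replicate 2, 7 of 45 were higher (15.6%, beside 4.72%) and 4 of 45 lower (8.89%, beside 4.81%) at the unadjusted p.

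Compared with chronic leukemias directly, exponential leukemias had lower values for most members. The median difference was -0.20 (all genes 0.0039), and 8 of 45 lay above 0 (17.8%, beside 51.1%). Of the 45, 0 were called (beside 0.00% of all genes), 10 were lower (22.2%, beside 3.50%) and 1 was higher (2.22%, beside 2.75%) at an unadjusted p under 0.05. All exponential arrays lay below all chronic arrays in 7 members (15.6%, beside 2.25%) and above them in 0 (beside 2.30%). Among the 7 was the dim gene Psma8. Without exponential replicate 4, 14 of 45 were lower (beside 3.99% of all genes) and 2 of 45 higher (beside 3.08%) at the unadjusted p. Of the 45, 11 then lay wholly below (beside 3.82%). In mean level, 33 members were highest in chronic leukemias and 28 were lowest in wild type. This order was not counted over all genes, so how far the members differ from the array as a whole in it is not known. The comparisons share their arrays and are not separate evidence.

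With chronic and exponential leukemias taken as 1 group, the median difference from wild type was 0.16 (all genes 0.0045), and 34 members lay above 0 (75.6%, beside 51.1%). Of the 45, 0 were called (beside 0.722%). At an unadjusted p under 0.05, 9 were higher (beside 5.47%) and 1 was lower (2.22%, beside 5.10%). Every leukemia array lay above every wild-type array in Psmd6 and Psme3, that is in 2 members (4.44%, beside 1.67%), and below in 0 (beside 1.65%). Without exponential replicate 4, 33 members lay above 0 (beside 50.7%), 9 were higher (beside 6.10%) and 1 lower (beside 5.52%), and 2 lay wholly above (beside 2.38%). Without wild-type replicate 1, 6 of 45 were higher (beside 3.63%) and 0 lower (beside 3.73%). Of the 45, 2 lay wholly above (4.44%, beside 3.51%), and the smallest adjusted p of a member rose from 0.107 to 0.506 (limma). Without wild-type replicate 2, 11 of 45 were higher (beside 5.18%) and 2 lower (beside 5.02%). That smallest adjusted p was then 0.0501 (limma).

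**Figure D2:**
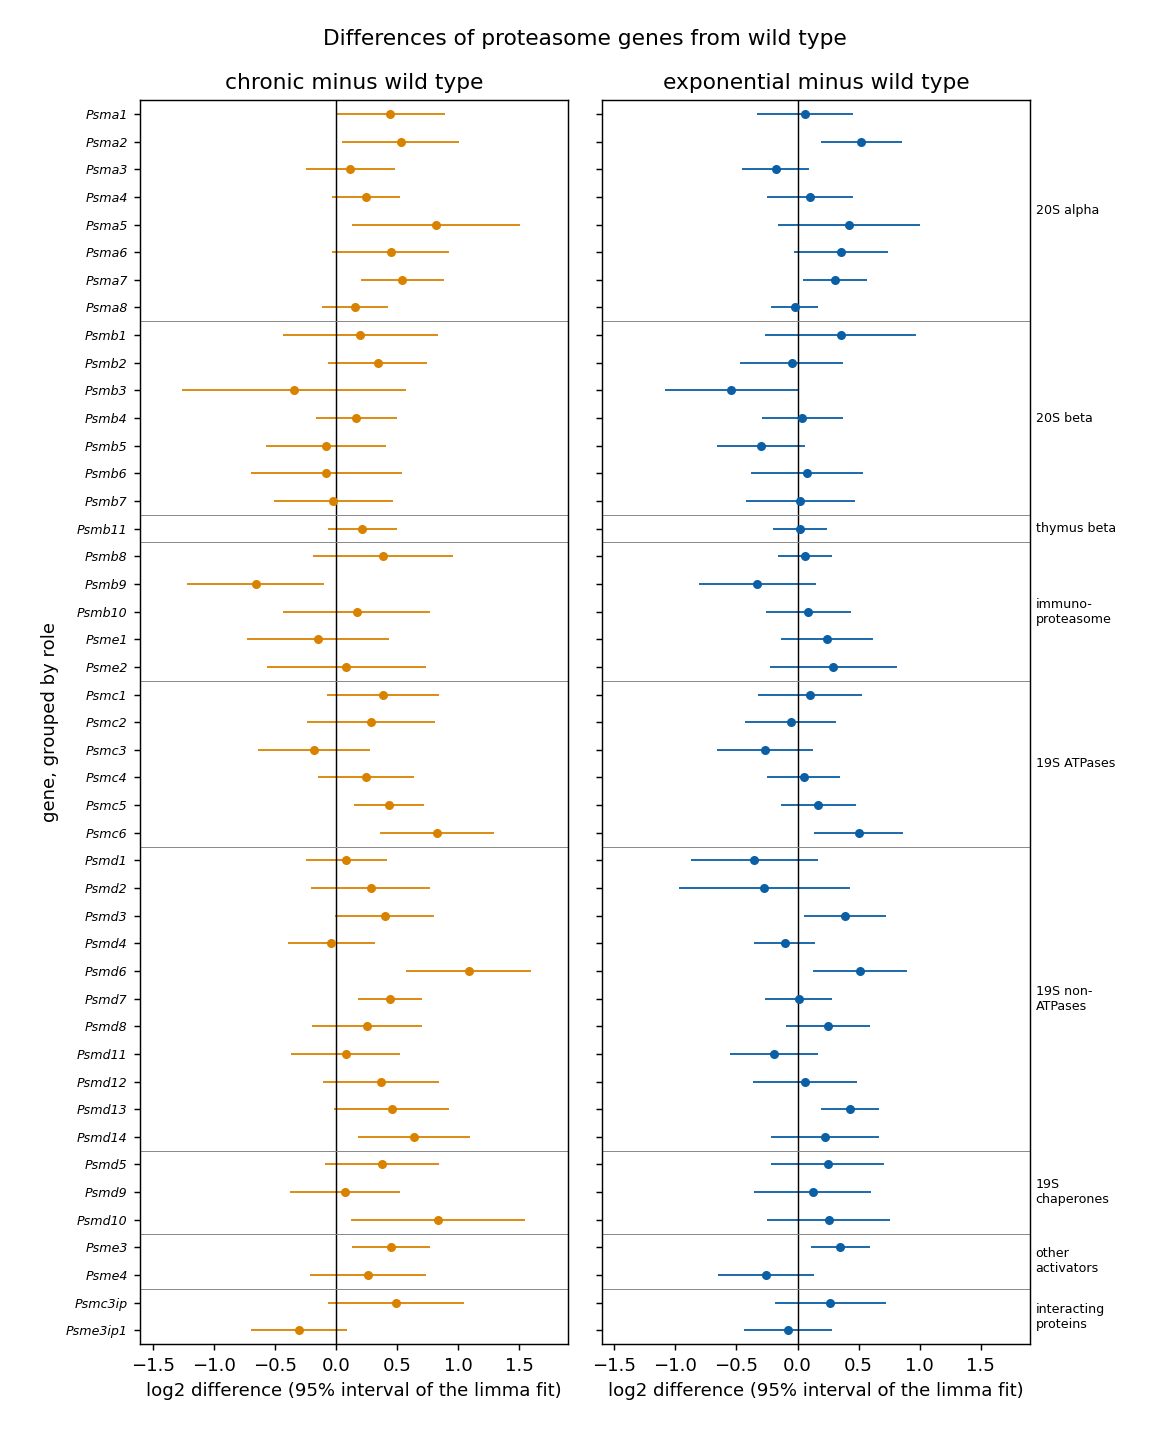
Points are log2 differences of each gene from wild type, for chronic (left) and exponential (right) leukemias, with the 95% interval of the limma fit. The interval leaves out 0 in 12 of 45 genes on the left and in 7 on the right, before any adjustment for multiple tests.

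The classes did not move alike in the point estimates. In chronic leukemias, the median difference from wild type was 0.45 over the 8 alpha genes, 0.34 over the 6 ATPases and 0.37 over the 11 non-ATPases. Over the 7 constitutive beta genes it was -0.02, and over the 5 immunoproteasome genes 0.09. In exponential leukemias the same medians were 0.20, 0.08, 0.06, 0.02 and 0.09. From chronic to exponential, the classes differed by -0.21, -0.27, -0.31, -0.13 and 0.21, in the same order. All 17 genes of the 19S particle and all 8 alpha genes had a lower mean in exponential than in chronic leukemias. Some were lower by very little, such as Psmd8 (-0.0083), Psma2 (-0.010) and Psmd3 (-0.012), and Psma8 was dim. A higher mean in exponential than in chronic leukemias was found in 8 members (17.8%, beside 51.1% of all genes). Of the immunoproteasome, Psmb9 (0.33), Psme1 (0.38) and Psme2 (0.21) were higher and Psmb8 (-0.32) and Psmb10 (-0.08) lower in that difference. These are descriptions of lists and differences between classes were not tested.

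By array, the median deviation of the 17 regulatory genes from their wild-type means was 0.40, 0.29 and 0.49 in the chronic arrays and -0.07, 0.02 and 0.06 in the wild-type arrays. It was -0.09, 0.03, 0.02, 0.30 and 0.00 in exponential replicates 1 to 5. The chronic arrays thus lay above wild type, and only replicate 4 of the exponential arrays reached into their range. For the constitutive beta genes, the 3 groups overlapped, with chronic arrays at 0.37, -0.02 and -0.14. For the immunoproteasome, chronic arrays at 0.28, -0.15 and -0.27 fell within the range of wild type (-0.31 to 0.24), apart from replicate 1.

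Genes of the cell cycle (24 measured) also varied between these arrays. Their median deviation was -0.01, 0.49 and 0.48 in the chronic arrays, 0.98 in exponential replicate 4 and -0.39 to 0.15 in the other exponential arrays. The proteasome members stood at a median of 0.31, 0.18 and 0.33 in chronic replicates 1, 2 and 3. In exponential replicate 4 they stood at 0.20, the highest of the 5. Whether the cell cycle genes and the members are related was not tested.

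**Figure D3:**
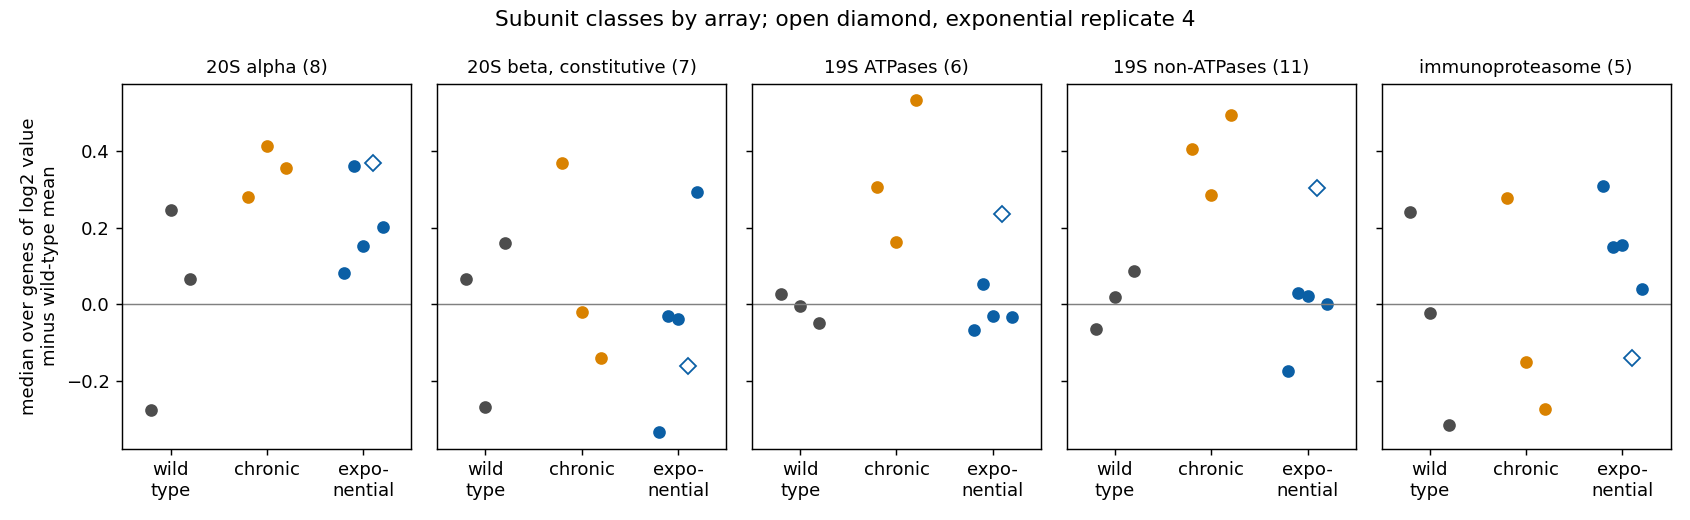
Each point is 1 array. The vertical axis is the median, over the genes of a class, of the log2 value minus the wild-type mean of the gene, with the number of genes in brackets. In both 19S classes, the 3 chronic arrays lie above the 3 wild-type arrays, and in the constitutive beta and immunoproteasome classes they overlap.

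Among the genes of the 20S core, the alpha genes gave the clearest differences. Psma5 was at 4.82, 5.89 and 6.03 in wild type, at 6.32, 6.48 and 6.41 in chronic and at 5.76, 6.34, 6.10, 5.97 and 5.85 in exponential leukemias. The chronic arrays lay above wild type, in which replicate 1 was the lowest by far, and the exponential arrays overlapped both. The difference of chronic from wild type was 0.82 (SE 0.30, adjusted p = 0.351 with limma). In a second, dimmer row of Psma5 these groups overlapped, with chronic replicate 3 at 4.30 and wild-type replicate 2 at 4.39. Psma7 was at 6.79, 6.80 and 6.99 in wild type and at 7.36, 7.22 and 7.64 in chronic leukemias, a difference of 0.54 (SE 0.15, adjusted p = 0.201 with limma). In exponential leukemias it was at 6.98 to 7.42, overlapping both groups (difference from wild type 0.31, SE 0.12).

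Psma2 was similar in both phases. It was at 6.63, 7.29 and 6.88 in wild type, at 7.70, 7.53 and 7.17 in chronic and at 7.30, 7.39, 7.47, 7.49 and 7.63 in exponential leukemias. All exponential arrays lay above wild type, the nearest by a small margin, whereas chronic replicate 3 fell within its range. The difference was 0.53 (SE 0.21) for chronic and 0.52 (SE 0.15) for exponential leukemias, with adjusted p = 0.389 and 0.221 with limma. Psma6 (0.45 and 0.36) and Psma1 (0.45 and 0.06) were higher in the chronic point estimate, and Psma3 differed by 0.12 and -0.18.

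The 3 catalytic genes of the constitutive core showed no shift in one direction. Psmb5, the chymotrypsin-like subunit, was at 6.03, 5.74 and 6.25 in wild type, at 6.20, 6.06 and 5.52 in chronic and at 5.45, 5.93, 5.47, 5.76 and 5.93 in exponential leukemias. Its groups overlapped, with differences of -0.08 (95% interval -0.57 to 0.41) and -0.30 (-0.66 to 0.06). Psmb6, the caspase-like subunit, differed by -0.08 (-0.70 to 0.54) and 0.08 (-0.38 to 0.53), and Psmb7, the trypsin-like subunit, by -0.02 (-0.51 to 0.47) and 0.02 (-0.43 to 0.47). These intervals do not show that the levels were alike. Of the structural beta genes, Psmb3 was at 6.43, 5.30 and 5.84 in wild type and at 4.85 to 5.53 in exponential leukemias, and chronic arrays ran from 4.80 to 6.25. The difference of exponential from wild type was -0.54 (SE 0.24, adjusted p = 0.516 with limma), the lowest of all members there. A second row of Psmb3, nearly as bright, was at 5.73, 5.15 and 5.46 in wild type and at 5.09 to 5.55 in exponential leukemias, which largely overlapped. Psmb1 was at 4.79, 5.55 and 5.89 in wild type and at 5.25 to 6.32 in exponential leukemias, with a difference of 0.35 (SE 0.28). Psmb2 differed by 0.34 in chronic and -0.047 in exponential leukemias and Psmb4 by 0.17 and 0.04.

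Of the 19S ATPases, which unfold the substrate and feed it into the core, Psmc6 differed most. It was at 5.85, 6.61 and 6.23 in wild type, at 6.95, 6.98 and 7.24 in chronic and at 6.49, 6.81, 6.81, 6.77 and 6.76 in exponential leukemias. The chronic arrays lay above both other groups, and exponential replicate 1 fell within the wild-type range. The difference was 0.83 (SE 0.20, fc 1.78, adjusted p = 0.164 with limma) in chronic and 0.50 (SE 0.16, adjusted p = 0.306 with limma) in exponential leukemias. Psmc5 was at 6.49, 6.68 and 6.80 in wild type and at 7.05, 7.12 and 7.09 in chronic leukemias, with no overlap and a difference of 0.43 (SE 0.12, adjusted p = 0.231 with limma). Its exponential arrays ran from 6.57 to 7.10 and spanned both. Psmc3 was the one ATPase with a negative difference in chronic leukemias (-0.18, SE 0.20), and in exponential leukemias it was at -0.27 (SE 0.18).

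Psmd6, a subunit of the 19S lid, gave the largest difference and kept the 3 groups apart. It was at 5.44, 6.33 and 6.01 in wild type, at 6.92, 6.98 and 7.15 in chronic and at 6.40, 6.40, 6.46, 6.43 and 6.50 in exponential leukemias. No array of any group overlapped another group, and the exponential arrays lay between the other two. The highest wild-type array was close to the lowest exponential one. The difference from wild type was 1.09 (SE 0.22, fc 2.13, adjusted p = 0.103 with limma) in chronic and 0.51 (SE 0.17, fc 1.42, adjusted p = 0.330 with limma) in exponential leukemias. Exponential leukemias lay 0.58 below chronic ones (difference -0.58, SE 0.09, adjusted p = 0.378 with limma). In 1 fit over the arrays of all 3 groups, the chronic difference passed the threshold (adjusted p = 0.0304 with limma).

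The other lid genes followed Psmd6 in part. Psmd14, the deubiquitinase of the lid, was at 6.34, 7.07 and 6.83 in wild type, at 7.41, 7.24 and 7.52 in chronic and at 6.49, 7.11, 7.09, 7.05 and 7.12 in exponential leukemias. The chronic arrays lay above all others, and exponential arrays overlapped wild type. The differences from wild type were 0.64 (SE 0.20, adjusted p = 0.266 with limma) and 0.22 (SE 0.20). Psmd7, the partner of Psmd14, was at 5.76, 5.80 and 5.92 in wild type, at 6.28, 6.21 and 6.32 in chronic and at 5.84, 5.86, 5.72, 6.13 and 5.64 in exponential leukemias. Its chronic arrays lay apart from both groups, which overlapped each other. The difference was 0.44 (SE 0.11, adjusted p = 0.180 with limma) in chronic and 0.01 (SE 0.12) in exponential leukemias.

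Psmd13, another lid subunit, had the smallest p among the members in exponential leukemias. It was at 3.06, 3.41 and 3.25 in wild type and at 3.75, 3.59, 3.78, 3.63 and 3.62 in exponential leukemias, with no overlap and a difference of 0.43 (SE 0.11, fc 1.35, adjusted p = 0.160 with limma). Chronic arrays were at 3.65, 3.35 and 4.10, so that one fell within wild type. Psmd3, also of the lid, differed by 0.40 (SE 0.17) and 0.39 (SE 0.15) in the 2 phases. Psmd1 and Psmd2, the scaffold subunits of the base, had negative point estimates in exponential leukemias (-0.36, SE 0.23, and -0.27, SE 0.31). Psmd2 was at 3.19 in exponential replicate 1 and at 4.23 to 4.66 in the other exponential arrays.

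Psmd10, a chaperone of 19S assembly also known as gankyrin, was at 4.38, 5.55 and 5.18 in wild type, at 5.54, 5.84 and 6.25 in chronic and at 5.33, 5.06, 5.38, 5.36 and 5.33 in exponential leukemias. Chronic replicate 1 lay just within the wild-type range, and all exponential arrays lay below chronic. The difference was 0.84 (SE 0.31, adjusted p = 0.360 with limma) in chronic and 0.25 (SE 0.22) in exponential leukemias, and exponential lay below chronic (difference -0.58, SE 0.16, adjusted p = 0.748 with limma). Psme3, the nuclear activator that works independently of interferon, was at 6.04, 6.40 and 6.27 in wild type, at 6.56, 6.75 and 6.74 in chronic and at 6.49, 6.58, 6.52, 6.71 and 6.62 in exponential leukemias. Every leukemia array lay above every wild-type array, and the 2 phases overlapped. The differences were 0.45 (SE 0.14, adjusted p = 0.261 with limma) and 0.35 (SE 0.11, adjusted p = 0.269 with limma), and over all leukemias 0.39 (SE 0.10, adjusted p = 0.107 with limma). Psme4, the other activator, differed by 0.26 in chronic and -0.26 in exponential leukemias.

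**Figure D4:**
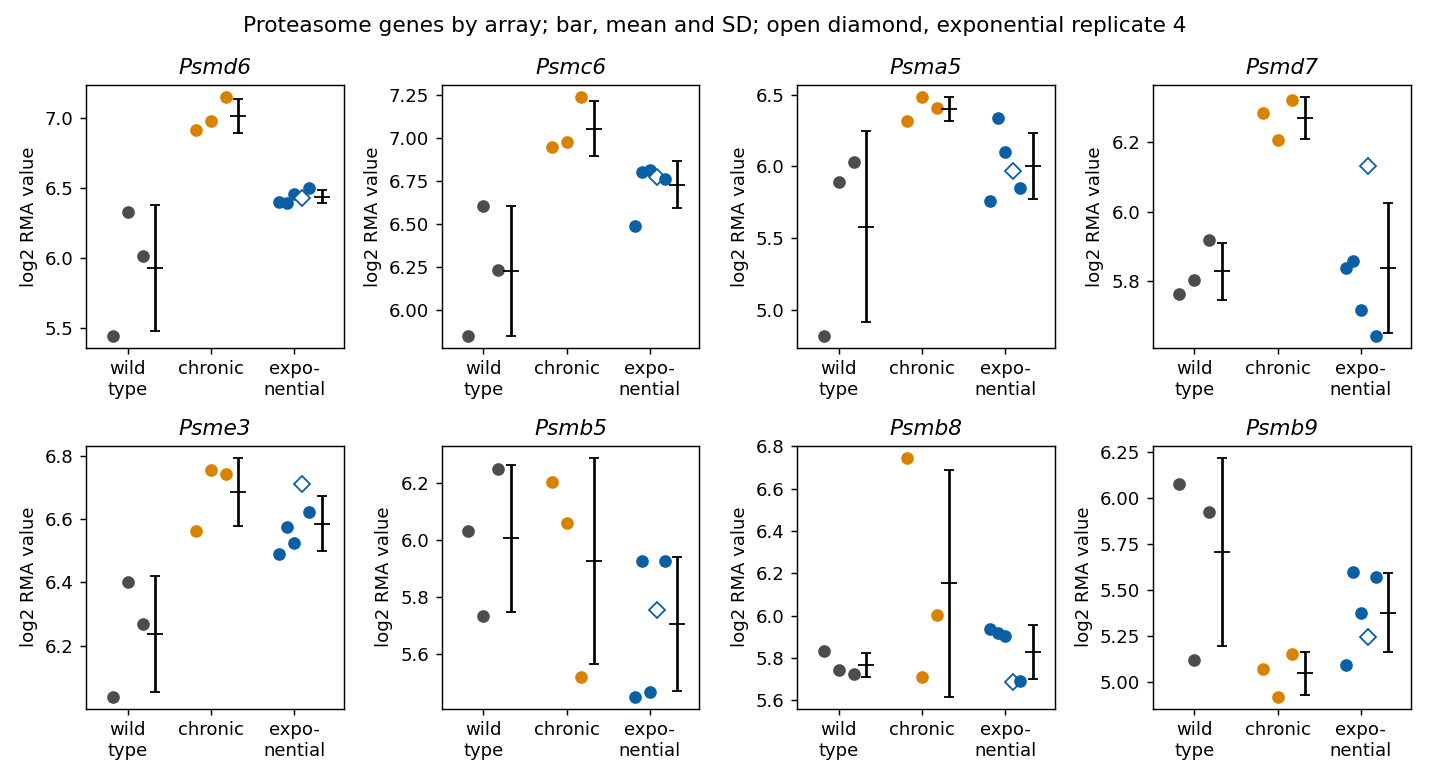
Points are the log2 values of 8 genes in each array, with the group mean and SD as a bar beside them and exponential replicate 4 as an open diamond. The vertical axes differ in range. In Psmd6, the wild-type (5.44 to 6.33), exponential (6.40 to 6.50) and chronic (6.92 to 7.15) arrays do not overlap.

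The immunoproteasome genes did not share one direction. Psmb9 was lower in chronic leukemias in the point estimate. It was at 6.08, 5.12 and 5.92 in wild type, at 5.07, 4.92 and 5.15 in chronic and at 5.09, 5.60, 5.38, 5.24 and 5.57 in exponential leukemias. Wild-type replicate 2 lay within the chronic range, and exponential arrays overlapped both groups. The difference was -0.66 (SE 0.24, 95% interval -1.22 to -0.09, adjusted p = 0.360 with limma) in chronic and -0.33 (SE 0.21, -0.81 to 0.15) in exponential leukemias. It was the only member at an unadjusted p under 0.05 on the low side in chronic leukemias. Tap1, its neighbor across the 225 bases shown above, was at 3.20, 3.55 and 3.66 in wild type and at 3.25, 3.15 and 3.34 in chronic leukemias, a difference of -0.22 (adjusted p = 0.687 with limma).

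Psmb8 was at 5.83, 5.75 and 5.73 in wild type, at 6.75, 5.71 and 6.00 in chronic and at 5.94, 5.92, 5.91, 5.69 and 5.69 in exponential leukemias. The chronic mean was raised by replicate 1, and the groups overlapped. The difference was 0.38 (95% interval -0.19 to 0.96) in chronic and 0.06 (-0.16 to 0.29) in exponential leukemias. Psmb10 differed by 0.17 (-0.43 to 0.77) and 0.09 (-0.26 to 0.43). The activator genes Psme1 (-0.14 and 0.24) and Psme2 (0.09 and 0.29) had wide intervals that included 0 in both phases. A brighter row shared by Psme2 and Psme2b, left out by the rule, was at 6.67, 6.26 and 6.13 in wild type. It was at 6.23, 6.02 and 5.57 in chronic and at 5.67 to 6.27 in exponential leukemias. The groups overlapped, but this row leaned lower in leukemias, against the sign of the kept row.

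Each immunoproteasome catalytic gene was also set against the constitutive gene it replaces, as the change in the pair relative to wild type. For Psmb9 minus Psmb6, the values were -0.95, -0.38 and -0.41 in the chronic arrays and -0.53, -0.06, -0.29, -0.54 and -0.60 in the exponential arrays, with wild type at -0.10, -0.14 and 0.24. The chronic arrays lay below wild type and the exponential arrays overlapped it only through replicate 2. For Psmb8 minus Psmb5, the chronic arrays were at 0.78, -0.11 and 0.72 and the exponential arrays at 0.0047 to 0.72, overlapping wild type (-0.28 to 0.25). For Psmb10 minus Psmb7, all groups overlapped. No test was run on the pairs.

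Genes around the proteasome were taken from fixed lists. Of 17 associated genes of assembly, ubiquitin reception and transcription, 0 were called in any comparison and 13 lay above 0 in chronic leukemias (median 0.15). Uchl5, a deubiquitinase of the 19S particle, differed by 0.76 (adjusted p = 0.337 with limma) and Pomp, the chaperone of core assembly, by 0.12 in chronic leukemias. The factors that drive proteasome genes had point estimates of opposite sign, at -0.34 in chronic and -0.25 in exponential leukemias for Nfe2l1 (adjusted p = 0.527 and 0.484 with limma) and at 0.39 and 0.25 for Nfe2l2 (adjusted p = 0.540 and 0.745 with limma). Of the list of ubiquitin precursors and activating enzymes, 1 gene was measured by name, Uba6, which differed by 0.35 in chronic leukemias.

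Of 10 genes of MHC class I peptide loading, 0 were called, and the median difference in chronic leukemias was -0.10. Erap1, the aminopeptidase that trims peptides in the endoplasmic reticulum, was at 5.59, 5.95 and 5.51 in wild type and at 6.61, 6.47 and 6.28 in chronic leukemias (difference 0.77, adjusted p = 0.107 with limma). Nlrc5, the activator of class I genes, was lower by point estimate (difference -0.78, adjusted p = 0.111 with limma). Of 20 genes of interferon signaling, 10 lay above 0 and 10 below in chronic leukemias. Ifit3, an interferon-induced gene, had the largest difference there. It was at 3.96, 3.96 and 3.20 in wild type and at 6.69, 6.27 and 4.68 in chronic leukemias, with no overlap (difference 2.18, SE 0.49, adjusted p = 0.132 with limma). In this list, 1 gene was called, and only with all leukemias as 1 group. This was Jak2, a kinase of the interferon gamma receptor, at 7.53, 7.75 and 7.20 in wild type and at 6.25 to 6.91 in the leukemia arrays (difference -0.87, adjusted p = 0.0187 with limma). This call was lost without wild-type replicate 1 (adjusted p = 0.104 with limma) and without wild-type replicate 2 (adjusted p = 0.0886 with limma), and by the methods' t-test (adjusted p = 0.0747).

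The precision limits what could be seen. The median half-width of the 95% interval over the members was 0.47 in chronic and 0.38 in exponential leukemias. The interval lay within a 2-fold change in either direction for 36 and 43 of the 45 members. Wild-type replicate 1 was the lowest of its group in 21 members and the highest in 16. Its median distance from the mean of the other 2 was 0.34, beside 0.30 for replicate 2 and 0.14 for replicate 3.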

How the data were processed

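Total RNA of 11 samples was hybridized to Affymetrix Mouse Gene 1.0 ST arrays. The authors deposited log2 values, background-corrected by RMA and quantile-normalized with the affy package of R (version not given in the sources used here). Quantile normalization gives each array the same distribution, so that changes shared by all genes are not seen. Of 34760 rows, 21640 had 1 gene symbol, 1321 had several and 11799 had none. The brightest row stood for each of 19937 genes, and 5 members had several rows. A row shared by Psme2 and Psme2b was left out. No filter on dim rows was applied. The number of arrays limits the precision.

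Each comparison was fitted on its own arrays with limma 3.58.1 (lmFit and eBayes, R 4.3.3). Benjamini-Hochberg adjustment ran over all 19937 genes. Genes counted as called had to reach both a fold of 1.5, as in the study's methods, and an adjusted p below 0.05. Members, gene lists and tests were chosen with earlier results of these data known. Named were the catalytic and immunoproteasome genes, Psme3, the 5 members with the largest differences in each direction and the 5 with the smallest p, and up to 3 genes of each outside list. Other genes named for their group separation, Nfe2l2 and the cell type markers were chosen after their values were seen. The script was tested on simulated data. Alternatives were other samples in the fit, normalizations, row choices, variance models, a replicate block, the methods' t-test and leaving out each array. Counts without exponential replicate 4 or wild-type replicate 1 were added after seeing the data. Promoters came from the RefSeq table of GRCm38.p6.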

Additional observations from a re-analysis of the deposited data

Results flagged for a closer look

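Of 72 sets of 5 exponential arrays tested for 1 array far from the others by Dixon's ratio, 6 stood out, where chance gives about 1 in 20. Exponential replicate 1 was low in Psmb2 (4.85, others 5.54 to 5.70), in Psmc6 (6.49, others 6.76 to 6.81) and in Psmd14 (6.49, others 7.05 to 7.12). Exponential replicate 2 was low in Psmd10 (5.06, others 5.33 to 5.39). Exponential replicate 4, the array with low Cd8a, was high in Psmc2 (6.04, others 5.67 to 5.71) and in the interferon gamma receptor gene Ifngr2 (4.18, others 2.64 to 3.03). Groups of 3 arrays were not tested.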

How the results depend on the processing

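Of 146 recomputed counts and medians, 140 stayed the same, 5 moved and 0 reversed. A median counted as the same if it shifted by less than the SD between arrays, a count if it was equal or close. The remaining change was a gained call, Psmd6 in chronic leukemias in 1 fit over all 3 groups. In that fit, 1 member was called (beside 0.351% of all genes), against 0. The number of members called was 0 in every other alternative run, beside 0.000% to 1.595% of all genes. With single arrays left out, the median difference ranged from 0.20 to 0.38 in chronic and from 0.050 to 0.16 in exponential leukemias (the highest without chronic replicate 2 and without exponential replicate 1). The members with all exponential arrays below wild type became 1 without exponential replicate 4 (beside 5.31% of all genes) and 1 without wild-type replicate 1 (beside 5.85%). Those below chronic became 11 without exponential replicate 4 (beside 3.82%). Of 2157 values of single genes and class medians, 47 changed sign, all of single genes that were not called, and the cause was not tested. Class medians were not scored for a change of sign. With array weights, Psmb5 (0.0088) and Psmb7 (0.065) did so in chronic against wild type, and Psmb10 (0.040) and Tap1 (0.016) in exponential against chronic. With cyclic loess, Psmb7 (-0.033) did so in exponential against wild type. The replicate numbers did not pair the arrays (correlations of deviations -0.04 to 0.18). With the replicate block, 0 members were called, beside 0.552% of all genes in chronic and 0.697% in exponential leukemias against wild type. In that fit, Psmb6 (-0.055), Psmb7 (-0.15) and Pomp (-0.082) changed sign in exponential against wild type. So did Psmb7 (-0.13) and Psmb10 (0.0084) in exponential against chronic. With single arrays left out, the ranges that crossed 0 were those of Psme2 (-0.18 to 0.27), Pomp (-0.016 to 0.29), Psmb6 (-0.30 to 0.16), Psmb5 (-0.22 to 0.13), Psmb7 (-0.18 to 0.16), Psmb10 (-0.065 to 0.41), Psme1 (-0.36 to 0.063) and Psmb3 (-0.71 to 0.014) in chronic against wild type. In exponential against wild type they were Psmb7 (-0.14 to 0.16), Pomp (-0.032 to 0.13), Irf1 (-0.62 to 0.0082), Psmb6 (-0.15 to 0.31), Uba6 (-0.12 to 0.38) and Psmb10 (-0.089 to 0.21). In exponential against chronic they were Pomp (-0.22 to 0.084), Psmb7 (-0.14 to 0.18), Irf1 (-0.17 to 0.78), Psmb6 (-0.0089 to 0.35), Nfe2l1 (-0.033 to 0.24), Psmb10 (-0.32 to 0.15), Calr (-0.73 to 0.11) and Tap1 (-0.10 to 0.0015). By the methods' t-test, 7 members were higher in chronic leukemias than in wild type at an unadjusted p under 0.05 (all genes 4.50%). In exponential leukemias, 6 were higher (all genes 4.00%). After Benjamini-Hochberg adjustment, 0 members were called in either phase, beside 0.000% of all genes in chronic and 0.020% in exponential leukemias. In chronic against wild type, that t-test called 0 of all genes and the fit on all rows 0, against 91. Of the interferon genes, Jak2 and Ifngr2 gained a call as lower and Ifit3 as higher in chronic against wild type under some alternatives (adjusted p = 0.0167 to 0.0481 with limma), and Jak2 as lower in exponential against wild type without exponential replicate 4 (adjusted p = 0.0416 with limma).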

Other observations

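Among the members with several rows, the rows of 1 gene can be compared. The second row of Psma5 was at 3.45, 4.39 and 3.65 in wild type and at 4.47, 4.45 and 4.30 in chronic leukemias, with chronic replicate 3 below one wild-type array, where the brightest row kept the groups apart. The second row of Psmd2 was at 3.99 in exponential replicate 1, where the brightest row was at 3.19, and at 3.93 to 4.24 in the other exponential arrays.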
